A study of Homo sapiens with 8 samples.

Results

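The genes described here are 41 named members of the ATF4 branch of the integrated stress response, taken by symbol from a list drawn up with earlier results of these data known. All 41 were among the 18656 gene symbols of the table, and 40 of them were among the 11894 genes kept for testing, which had at least 1 TPM (a share of transcripts corrected for gene length) in 2 or more libraries. Of the 40, 39 had 1 TPM or more in every library. The remaining 1, FGF21, was below that level in 1 library. The member left out, NUPR1, was below 1 TPM in every library.

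The cells were SW480, an established human colorectal cancer line, and total RNA was sequenced after removal of ribosomal RNA. There were 4 groups of 2 libraries each: cells at 0 h with siRNA Negative Control, and cells treated for 24, 48 or 72 h with siRNA targeting TCF7L2, a transcription factor of the Wnt pathway. An siRNA is a short RNA, brought in here by a lipid reagent, that directs the destruction of a matching messenger RNA. The control exists at 0 h alone, so the siRNA and the time since transfection cannot be told apart. The labels do not say that the libraries came from separate cultures, and p-values measure the spread between these libraries, which may be technical.

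In the integrated stress response, kinases that sense amino acid shortage, misfolded protein in the endoplasmic reticulum, viral RNA or lack of haem phosphorylate the initiation factor eIF2 on its alpha subunit. Most translation then slows, while the messenger RNA of ATF4 is translated more, so that the ATF4 protein rises and switches on genes for amino acid synthesis and import, for other basic leucine zipper (bZIP) factors and for feedback regulators. ATF4 is controlled largely at translation, and the values below are RNA levels alone. Cancer cells with high demand for amino acids often keep part of this program on.

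Many promoters that ATF4 binds hold a C/EBP-ATF response element, whose core was searched here as TGATGNAA on both strands. The windows were those of RefSeq on GRCh38.p14, 250 bases before to 50 bases after a gene's annotated start, and 33 of the 41 members had at least 1 window. A match was found for 10 of those 33 members (30.3%), against 3.62% of all 35116 windows and 2.58% of the 9631 kept genes with a window. The match lay wholly before the start in 7 members. Those stretches are shown because they are the described promoters that carry the element, with the core in capitals. A core on the opposite strand appears as its reverse complement. ASNS lies at chr7:97872419-97872526 on the minus strand, ATF3 at chr1:212565166-212565273 on the plus strand and CEBPG at chr19:33374021-33374112 on the plus strand. CHAC1 lies at chr15:40953221-40953319 on the plus strand, FGF21 at chr19:48755420-48755523 on the plus strand, PPP1R15B at chr1:204411987-204412067 on the minus strand and SLC1A5 at chr19:46784854-46784961 on the minus strand.
ASNS: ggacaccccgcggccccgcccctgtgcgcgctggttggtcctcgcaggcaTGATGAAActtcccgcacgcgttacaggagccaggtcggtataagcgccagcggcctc
ATF3: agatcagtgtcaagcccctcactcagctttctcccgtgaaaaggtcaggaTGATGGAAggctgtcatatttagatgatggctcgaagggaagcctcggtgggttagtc
CEBPG: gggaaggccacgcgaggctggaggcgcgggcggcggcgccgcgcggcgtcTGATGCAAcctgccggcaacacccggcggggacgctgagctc
CHAC1: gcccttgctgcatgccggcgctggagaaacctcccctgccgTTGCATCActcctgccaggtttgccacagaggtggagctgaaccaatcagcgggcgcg
FGF21: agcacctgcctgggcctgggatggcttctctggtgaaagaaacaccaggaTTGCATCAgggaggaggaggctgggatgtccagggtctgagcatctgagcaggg
PPP1R15B: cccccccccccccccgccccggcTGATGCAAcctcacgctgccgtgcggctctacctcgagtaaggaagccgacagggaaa
SLC1A5: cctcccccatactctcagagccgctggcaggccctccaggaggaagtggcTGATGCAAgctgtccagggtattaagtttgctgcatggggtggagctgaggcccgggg
The core began 68 bases before the start in ASNS, 42 in CEBPG, 54 in FGF21, 97 in SLC1A5, 191 in ATF3, 209 in CHAC1 and 227 in PPP1R15B. In SLC1A4 it spanned the start, and in SLC7A1 and SLC3A2 it lay after it. These are matches of letters in a window and not measured binding sites.

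Totals and identity of the libraries were looked at first. The listed genes summed to between 448107 and 485602 TPM in 7 libraries and to 352456 TPM in the second 72 h library, and all 41 genes described here were lower in that library than in the first 72 h library before any scaling. Each library was therefore scaled by the median over genes of its ratio to the average library (factors of 0.987 to 1.07 in 7 libraries and 0.804 in the second 72 h library), and every log2 change below is a difference on log2(scaled TPM + 1) with its standard error (SE). Levels in TPM are as deposited. A gene is called where limma's adjusted p is under 0.05. On the TPM as deposited the median change of all genes at 72 h was -0.19, against 0.00 after scaling, and of all genes tested 31.2% were then called lower and 10.5% higher at 72 h. Libraries of a group correlated at 0.992 to 0.996. TCF7L2 itself was listed at 6.86 and 7.47 TPM at 0 h, 5.82 and 5.05 at 24 h, 4.92 and 4.07 at 48 h, and at 72 h 4.07 and 3.53 TPM. Its log2 changes at 24, 48 and 72 h were -0.26, -0.56 and -0.58, each ± 0.11, with adjusted p-values of 0.288, 0.00725 and 0.00197. Leaving out the second library of either 0 h or 48 h ended the 48 h call (adjusted p = 0.0532 and 0.0573). Of the 10 colorectal epithelial markers, 8 were at 1 TPM or more in every library, while GPA33 was at 0.52 to 0.88 TPM at 0 h and 24 h and CDX1 at 0.66 TPM in the second 72 h library. The 6 fibroblast markers summed to 10.9 to 12.8 TPM at 0 h and 36.1 to 52.2 TPM at 72 h, most of it LUM, with COL1A1 at 3.02 TPM or less. The 5 leukocyte markers summed to 2.42 to 3.99 TPM at 0 h and 20.2 to 22.3 TPM at 72 h, most of it CD68, with PTPRC at 0.63 TPM or less, and the 4 endothelial markers summed to 0.60 TPM or less everywhere. Their part in the results was not tested.

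Across the 41 genes the RNA fell late and almost throughout. At 72 h, 37 of the 40 tested members were lower than at 0 h and 1 was higher, where 26.2% of all genes tested were lower and 25.8% higher. The median log2 change was -0.999 over the members and 0.00 over all genes, and 20 members were lower by 2-fold or more. At 48 h, 26 members were lower and 0 higher by limma (0 also at an unadjusted p under 0.05), where 11.5% of all genes were lower and 12% higher, and the median member change was -0.32. At 24 h only CHAC1, CBS and GDF15 were lower and 0 were higher by limma (20 lower and 0 higher at an unadjusted p under 0.05), where 0.437% of all genes were lower and 0.647% higher, and the median member change was -0.12. The 37 members lower at 72 h were 34 without the first 72 h library and 35 without the second. The count at 24 h was 0 without any 1 of the 0, 24 or 48 h libraries and 4 without either 72 h library. On the TPM as deposited 1 member was lower at 24 h, 15 at 48 h and 37 at 72 h, and 0 were higher at any of these times. Of all genes tested, 0.252%, 3.14% and 31.2% were then lower at these times, and 0.21%, 4.61% and 10.5% higher. The 11 members whose 48 h call was lost on that scale were CEBPG, GPT2, MTHFD2, STC2, EIF4EBP1, NFIL3, PCK2, SHMT2, SLC38A2, CTH and VLDLR (adjusted p between 0.0831 and 0.676). In bulk RNA a lower level can come from less RNA per cell or from fewer cells of a kind, and these cannot be told apart.

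**Figure D1:**
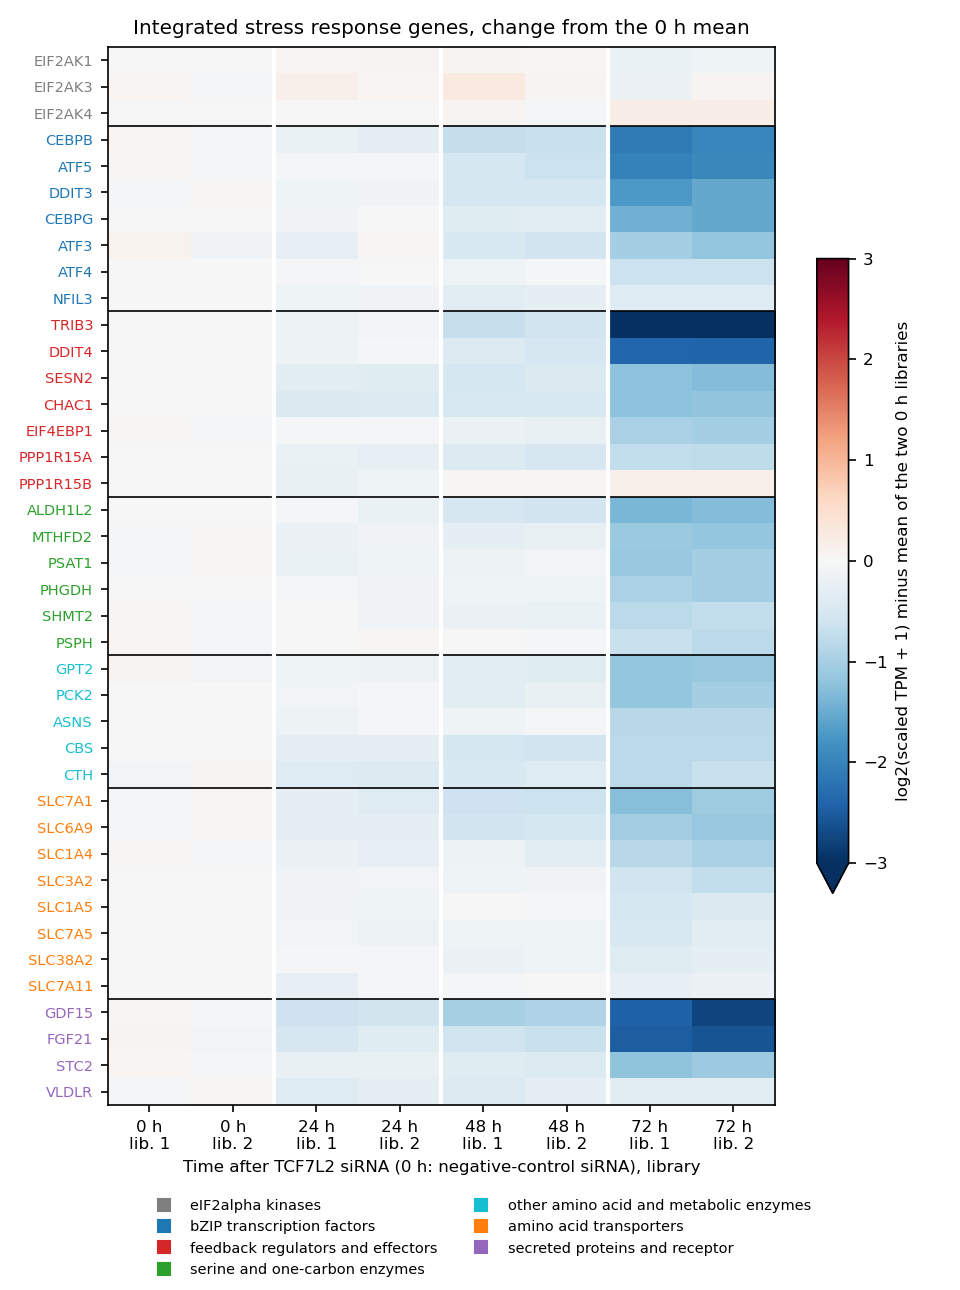
The heat map plots, for each gene (rows, grouped by role) and each of the 8 libraries (columns, from 0 h to 72 h), the log2 change from the mean of the 0 h libraries on the scaled log2(TPM + 1) scale, in colour. Nearly all rows turn lower in the 72 h columns, with TRIB3 lowest, while the rows of the eIF2alpha kinases stay near the 0 h level.

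The 3 eIF2alpha kinases among the 41, which start the response, had log2 changes between -0.17 and 0.20 at 72 h. EIF2AK1, the haem-regulated kinase that also relays mitochondrial stress, was listed at 43.6 and 44.3 TPM at 0 h, 43.3 and 43.1 at 24 h, 45.8 and 44.85 at 48 h, and at 72 h 36.95 and 30.4 TPM. Both 72 h libraries were below the other 6, and the log2 change at 72 h was -0.17 ± 0.05 (adjusted p = 0.0264). This call was lost without either 0 h library (log2 changes of -0.17 and -0.16) or without the first 72 h library (-0.12). It was also lost with quantile normalization (-0.10, adjusted p = 0.149). The same held with a minimum TPM of 5, no mean-variance trend or the compared groups alone (adjusted p between 0.0561 and 0.0611). EIF2AK4, the kinase that senses uncharged transfer RNA and is known as GCN2, was listed at 14.4 and 14.6 TPM at 0 h, 13.7 and 13.3 at 24 h, 15.2 and 14.2 at 48 h, and at 72 h 16.3 and 12.8 TPM. As deposited, the 72 h libraries were the highest and the lowest of the 8 and so overlapped the 0 h libraries. The lowest is the second 72 h library, whose scaling factor was 0.804, so this overlap is one of unscaled values. Its log2 change at 72 h was 0.20 ± 0.07 (adjusted p = 0.0382) after scaling and -0.01 (adjusted p = 0.97) on the TPM as deposited, and the scaled call was lost without any 1 of the 0, 24 or 72 h libraries (adjusted p between 0.0538 and 0.127). EIF2AK3, the kinase of the endoplasmic reticulum membrane known as PERK, was listed at 8.86 and 8.30 TPM at 0 h, 9.05 and 8.36 at 24 h, 10.6 and 9.21 at 48 h, and at 72 h 7.26 and 6.97 TPM. Its 72 h libraries were the lowest as deposited, and after scaling the log2 change was -0.04 ± 0.11 (adjusted p = 0.768). The viral RNA sensor of the family, EIF2AK2, is not among the 41 and had a log2 change of 0.03 ± 0.06 at 72 h (adjusted p = 0.659). Exons of EIF2AK1 overlap those of AIMP2 on the opposite strand. AIMP2 was listed at 34.7 and 28.5 TPM at 72 h and 65.8 and 66.8 TPM at 0 h and had a log2 change of -0.84. The sources used here do not say whether strand was used in counting, so reads of the pair cannot be told apart.

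All 7 bZIP transcription factors were lower at 72 h, with a median log2 change of -1.48, and 6 of 7 were lower at 48 h. ATF4 itself, the factor at the head of the program, was listed at 423 and 424 TPM at 0 h, 386 and 393 at 24 h, 386 and 404 at 48 h, and at 72 h 264 and 204 TPM. The 24 h and 48 h libraries lay close together, and both 72 h libraries were below all others. Its log2 change at 48 h was -0.09, which was not called (adjusted p = 0.123). At 72 h it was -0.64 ± 0.04 (adjusted p = 1.97e-06), next to NFIL3 the smallest of the 7 in size. ATF4 has named pseudogenes, as do ASNS, EIF4EBP1 and SLC7A5, and reads may have been divided among the copies.

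The log2 changes of 5 other factors were larger in size. ATF5, itself translated more under eIF2 phosphorylation, was listed at 120.0 and 115 TPM at 0 h, 108 and 106 at 24 h, 80.9 and 74.2 at 48 h, and at 72 h 27.1 and 22.8 TPM. Its log2 changes were -0.59 ± 0.06 and -1.98 ± 0.06 at 48 and 72 h (adjusted p = 0.00035 and 4.35e-08), the last being 3.95-fold lower. CEBPB, a C/EBP factor that pairs with ATF4, was listed at 33.3 and 30.7 TPM at 0 h, 26.2 and 24.1 at 24 h, 19.00 and 19.9 at 48 h, and at 72 h 6.34 and 5.68 TPM. It was 4.10-fold lower at 72 h (log2 change -2.04 ± 0.08, adjusted p = 1.84e-07). As deposited, the levels of ATF5 and CEBPB at the 4 times did not overlap and stepped down at each. After scaling, their log2 changes at 24 h were -0.04 and -0.24, and neither was called (adjusted p = 0.806 and 0.182). CEBPG, another C/EBP partner of ATF4, was listed at 79.7 and 82.2 TPM at 0 h, 70.4 and 75.05 at 24 h, 62.2 and 64.2 at 48 h, and at 72 h 28.6 and 20.7 TPM. The log2 change at 72 h was -1.48 ± 0.06 (adjusted p = 1.6e-07). DDIT3, which encodes the pro-apoptotic factor CHOP, was listed at 39.4 and 41.9 TPM at 0 h, 35.2 and 34.8 at 24 h, 27.4 and 27.6 at 48 h, and at 72 h 11.35 and 10.15 TPM. By 72 h its log2 change was -1.62 ± 0.07 (adjusted p = 2.78e-07). As deposited, CEBPG and DDIT3 also stepped down without overlap between times. After scaling, their log2 changes at 24 h were -0.06 and -0.12, and neither was called (adjusted p = 0.682 and 0.471). The remaining pair, ATF3, a stress-induced repressor, and NFIL3, a repressor of clock and cytokine genes, changed by -1.08 ± 0.12 and -0.39 ± 0.08 at 72 h. At 48 h the call of ATF3 was lost without the first 0 h or the second 48 h library (adjusted p = 0.106 and 0.0892), and that of NFIL3 without any 1 of the 0 or 48 h libraries (adjusted p between 0.0673 and 0.113). ATF5 and DDIT3 overlap other genes on the opposite strand, among them NUP62 and MBD6, which had log2 changes of 0.39 and 0.25 at 72 h.

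**Figure D2:**
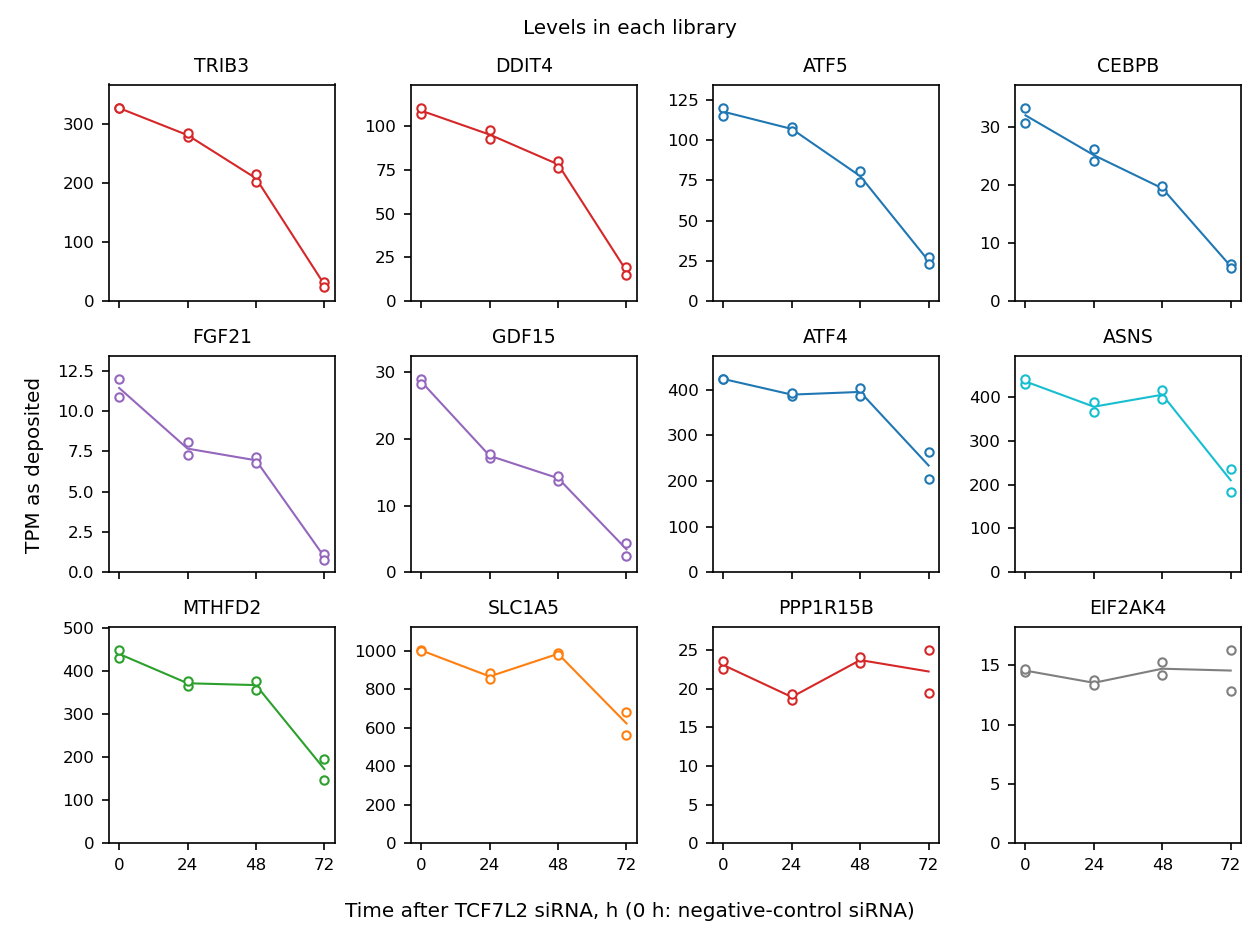
The panels plot the TPM as deposited (y axes, each from 0) against hours after TCF7L2 siRNA (x axes, with the negative-control siRNA at 0 h), with each library as a point and a line through the group means. TRIB3 is at 201 and 215 TPM at 48 h and at 32.4 and 23.65 TPM at 72 h, and CEBPB also steps down at every time.

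Among the feedback regulators and effectors, 6 of the 7 tested were lower at 72 h (median log2 change -1.21) and 6 at 48 h (median -0.46). TRIB3, a pseudokinase that binds ATF4 and CHOP and damps their activity, was listed at 326 and 327 TPM at 0 h, 277 and 285 at 24 h, 201 and 215 at 48 h, and at 72 h 32.4 and 23.65 TPM. Levels at the 4 times did not overlap, and the last step was by far the steepest. The log2 change was -0.64 ± 0.05 at 48 h (adjusted p = 6.14e-05). At 72 h it was -3.30 ± 0.05 (adjusted p = 6e-10), or 9.84-fold lower, the lowest of all 11894 genes tested. DDIT4, an inhibitor of the growth kinase mTORC1 known as REDD1, was listed at 107 and 111 TPM at 0 h, 92.85 and 97.8 at 24 h, 80.4 and 76.2 at 48 h, and at 72 h 19.55 and 15.05 TPM. It was 5.23-fold lower at 72 h (log2 change -2.39 ± 0.05, adjusted p = 9.53e-09). EIF4EBP1, which holds back the cap-binding factor eIF4E, was listed at 223 and 212 TPM at 0 h, 196 and 198 at 24 h, 189.5 and 187 at 48 h, and at 72 h 107 and 80.2 TPM. Its log2 change was -1.01 ± 0.05 at 72 h (adjusted p = 3.29e-07), and its 48 h call (-0.20) was lost without the first 0 h or the second 48 h library (adjusted p = 0.115 and 0.0868).

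CHAC1, an enzyme that degrades glutathione, held level between 24 h and 48 h, unlike TRIB3 and DDIT4. It was listed at 22.8 and 22.8 TPM at 0 h, 15.55 and 15.55 at 24 h, 15.9 and 15.9 at 48 h, and at 72 h 8.90 and 7.09 TPM. It was thus lower by 24 h, level at 48 h and lower again at 72 h, with log2 changes against 0 h of -0.43, -0.48 and -1.21, each ± 0.06 (adjusted p = 0.02, 0.00117 and 8.15e-07). The 24 h call was lost without any 1 of the 0, 24 or 48 h libraries (adjusted p between 0.0528 and 0.156) and on the TPM as deposited (adjusted p = 0.142). SESN2, a leucine sensor that restrains mTORC1, followed a like course, with no call between 24 h and 48 h (adjusted p = 0.257). Its log2 changes against 0 h were -0.34, -0.48 and -1.27, each ± 0.08 (adjusted p = 0.0803, 0.00295 and 2.21e-06). PPP1R15A, the stress-induced subunit known as GADD34 that brings a phosphatase to eIF2alpha, changed by -0.75 ± 0.06 at 72 h. PPP1R15B, the constitutive counterpart of PPP1R15A, was listed at 22.6 and 23.6 TPM at 0 h, 18.55 and 19.3 at 24 h, 23.3 and 24.1 at 48 h, and at 72 h 25.02 and 19.5 TPM. Its 24 h libraries were the lowest. As deposited its 72 h libraries spanned most of the range, before the second of them was scaled by its factor of 0.804. Its log2 change was 0.15 ± 0.06 at 72 h (adjusted p = 0.0644). At 48 h it was higher than at 24 h by 0.22 ± 0.06 (adjusted p = 0.0393), a call lost without any 1 of the 0, 24 or 48 h libraries (adjusted p between 0.0618 and 0.204). NUPR1, a small stress-induced chromatin protein, was at 0.12 and 0.01 TPM at 72 h and 0.34 and 0.11 TPM at 0 h.

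The 6 enzymes of serine and mitochondrial one-carbon metabolism were all lower at 72 h, by a median log2 change of -1.04, while 3 of the 6 were lower at 48 h and the median there was -0.15. MTHFD2, the mitochondrial folate enzyme, was listed at 429.7 and 448 TPM at 0 h, 365 and 377 at 24 h, 357 and 377 at 48 h, and at 72 h 197 and 148 TPM. PHGDH, which catalyses the first step of serine synthesis, was listed at 66.65 and 65.9 TPM at 0 h, 60.1 and 56.9 at 24 h, 60.1 and 60.3 at 48 h, and at 72 h 32.7 and 24.2 TPM. PSAT1, the aminotransferase of the same path, was listed at 117 and 126 TPM at 0 h, 99.3 and 103 at 24 h, 107 and 114 at 48 h, and at 72 h 52.7 and 44.6 TPM. As deposited, in none of these 3 genes were both 48 h libraries below both 24 h libraries. After scaling, the log2 changes from 24 h to 48 h were -0.11, -0.05 and 0.04 for MTHFD2, PHGDH and PSAT1. None of these was called (adjusted p = 0.153, 0.595 and 0.735). In all 3 both 72 h libraries were below all others. The log2 changes at 72 h were -1.14 ± 0.05 for MTHFD2 (adjusted p = 1.67e-07), -0.99 ± 0.05 for PHGDH (adjusted p = 6.78e-07) and -1.08 ± 0.06 for PSAT1 (adjusted p = 9.91e-07). ALDH1L2, the mitochondrial formyl-tetrahydrofolate dehydrogenase, was listed at 25.3 and 25.3 TPM at 0 h, 23.3 and 20.4 at 24 h, 17.3 and 16.7 at 48 h, and at 72 h 8.95 and 7.26 TPM. Unlike the first 3, it was called lower at 48 h than at 24 h (log2 change -0.42, adjusted p = 0.00666). Its levels stepped down without overlap at each time. Its log2 changes at 48 and 72 h were -0.54 and -1.33, each ± 0.07 (adjusted p = 0.00138 and 1.03e-06). SHMT2, which turns serine into glycine in mitochondria, and PSPH, the phosphatase that completes serine synthesis, changed by -0.77 ± 0.05 and -0.73 ± 0.07 at 72 h. The 48 h call of SHMT2 (-0.18) was lost without any 1 of the 0 or 48 h libraries (adjusted p between 0.068 and 0.174). MTHFD2, PSAT1 and PSPH have named pseudogenes, and SHMT2 overlaps NDUFA4L2 on the opposite strand, which had a log2 change of -0.96 at 72 h. The values of these 4 genes are uncertain to that extent.

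Of the other amino acid and metabolic enzymes, all 5 were lower at 72 h (median log2 change -0.84) and 4 at 48 h (median -0.35). ASNS, asparagine synthetase, whose promoter element is printed above, was listed at 429 and 441 TPM at 0 h, 367 and 389 at 24 h, 394 and 416 at 48 h, and at 72 h 237 and 183 TPM. Only the 72 h libraries were below all the rest. The log2 changes at 48 and 72 h were -0.10 and -0.84, each ± 0.05 (adjusted p = 0.166 and 9.9e-07). CBS, cystathionine beta-synthase of the path that makes cysteine from homocysteine, was listed at 125 and 130.3 TPM at 0 h, 99.2 and 97.2 at 24 h, 87.1 and 85.7 at 48 h, and at 72 h 70.1 and 54.99 TPM. It stepped down without overlap at each time. The log2 changes against 0 h were -0.28, -0.55 and -0.81, each ± 0.04 (adjusted p = 0.0258, 7.53e-05 and 9.56e-07). The 24 h call of CBS was lost without any 1 of the 0, 24 or 48 h libraries (adjusted p between 0.0602 and 0.191) and on the TPM as deposited (adjusted p = 0.524). CBS has a near-identical copy, CBSL, listed at between 0.16 and 2.60 TPM, so its values are uncertain. GPT2, mitochondrial alanine aminotransferase, was listed at 83.4 and 75.9 TPM at 0 h, 68.3 and 66.55 at 24 h, 62.2 and 61.4 at 48 h, and at 72 h 34.2 and 27.00 TPM. Its 72 h libraries gave a log2 change of -1.15 ± 0.06 (adjusted p = 5.64e-07). PCK2, the mitochondrial phosphoenolpyruvate carboxykinase, was listed at 38.4 and 38.4 TPM at 0 h, 34.3 and 34.5 at 24 h, 30.1 and 32.95 at 48 h, and at 72 h 16.1 and 13.8 TPM. At 72 h this came to a log2 change of -1.10 ± 0.07 (adjusted p = 1.97e-06). Both were lower in every siRNA library than at 0 h. The 48 h call of PCK2 (-0.27) was lost without either 0 h library or the first 48 h library (adjusted p between 0.0815 and 0.121). CTH, which follows CBS in cysteine synthesis, changed by -0.74 ± 0.10 at 72 h. Its 48 h call was lost without the second 0 h library or either 48 h library (adjusted p between 0.0535 and 0.106).

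All 8 amino acid transporters were lower at 72 h, but by less, with a median log2 change of -0.57, and 3 were lower at 48 h (median -0.14). SLC7A1, the importer of cationic amino acids, was listed at 40.2 and 42.2 TPM at 0 h, 31.8 and 29.1 at 24 h, 25.97 and 26.05 at 48 h, and at 72 h 16.1 and 14.5 TPM, in steps without overlap. Its log2 change at 72 h was -1.17 ± 0.08 (adjusted p = 3.03e-06). SLC6A9, the glycine transporter, was listed at 14.1 and 14.98 TPM at 0 h, 10.9 and 10.8 at 24 h, 9.24 and 9.80 at 48 h, and at 72 h 6.37 and 4.57 TPM. The 72 h log2 change was -1.09 ± 0.08 (adjusted p = 5.35e-06). These were the 2 transporters lower by 2-fold or more. SLC3A2, the heavy chain shared by several exchangers, was listed at 331 and 325 TPM at 0 h, 288 and 285 at 24 h, 294 and 306 at 48 h, and at 72 h 209 and 149 TPM. Against 0 h the log2 change at 72 h was -0.67 ± 0.05 (adjusted p = 5.95e-06). SLC1A5, a glutamine importer and at 0 h the most abundant of the 41 in TPM, was listed at 1003 and 999 TPM at 0 h, 882 and 850.1 at 24 h, 989 and 977 at 48 h, and at 72 h 681 and 563 TPM. That gave a log2 change at 72 h of -0.47 ± 0.04 (adjusted p = 1.89e-05). In both, the 72 h libraries alone lay below all the others. Of the light chains that pair with SLC3A2, SLC7A5, a leucine exchanger, changed by -0.40 ± 0.06 at 72 h. SLC7A11, the cystine importer, changed by -0.22 ± 0.08 (adjusted p = 0.0354), the smallest of the 8 in size. SLC7A11 was listed at 18.3 and 14.98 TPM at 72 h and 22.5 and 22.85 TPM at 0 h. Its call was lost without any 1 of these 4 libraries (adjusted p between 0.0525 and 0.137). SLC1A4, a neutral amino acid carrier, changed by -0.90 ± 0.08 and SLC38A2, a glutamine and alanine importer, by -0.33 ± 0.04. The 48 h call of SLC38A2 was lost without any 1 of the 0 or 48 h libraries (adjusted p between 0.0933 and 0.175).

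The 3 secreted factors fell strongly. FGF21, a hormone of nutrient stress, was listed at 11.99 and 10.9 TPM at 0 h, 7.28 and 8.05 at 24 h, 7.13 and 6.75 at 48 h, and at 72 h 1.15 and 0.76 TPM. Every library with TCF7L2 siRNA was below both 0 h libraries, and the gene was 5.79-fold lower at 72 h (log2 change -2.53 ± 0.10, adjusted p = 1.73e-07), a fold that the added 1 TPM understates. GDF15, a stress cytokine that lowers appetite, was listed at 28.97 and 28.1 TPM at 0 h, 17.2 and 17.7 at 24 h, 13.7 and 14.5 at 48 h, and at 72 h 4.37 and 2.51 TPM. It stepped down without overlap at each time. The log2 changes were -0.59, -0.96 and -2.59 in order of time, each ± 0.11 (adjusted p = 0.0397, 0.000414 and 1.84e-07). The 24 h call of GDF15 was lost without any 1 of the 0, 24 or 48 h libraries (adjusted p between 0.0684 and 0.22). STC2, a secreted stanniocalcin, was listed at 60.75 and 57.02 TPM at 0 h, 47.3 and 46.9 at 24 h, 45.3 and 44.1 at 48 h, and at 72 h 24.4 and 20.45 TPM. For it the 72 h log2 change was -1.15 ± 0.06 (adjusted p = 7.65e-07). VLDLR, a lipoprotein receptor, was listed at 2.23 and 2.53 TPM at 0 h, 1.47 and 1.60 at 24 h, 1.51 and 1.75 at 48 h, and at 72 h 1.65 and 1.27 TPM. All 6 libraries with TCF7L2 siRNA were below both 0 h libraries and overlapped one another. Its calls at 48 h (-0.35, adjusted p = 0.0484) and 72 h (-0.32 ± 0.11, adjusted p = 0.0347) did not withstand leaving out a library. The one at 48 h was lost without any 1 of the 8 (adjusted p between 0.0552 and 0.221), and the one at 72 h without either 0 h library, the second 24 h library or either 72 h library (adjusted p between 0.0503 and 0.177). In the order of all 11894 genes tested by log2 change at 72 h, counted from the lowest, TRIB3 stood at 1, GDF15 at 6, FGF21 at 7 and DDIT4 at 8, followed by CEBPB at 15, ATF5 at 17, DDIT3 at 37 and CEBPG at 49.

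**Figure D3:**
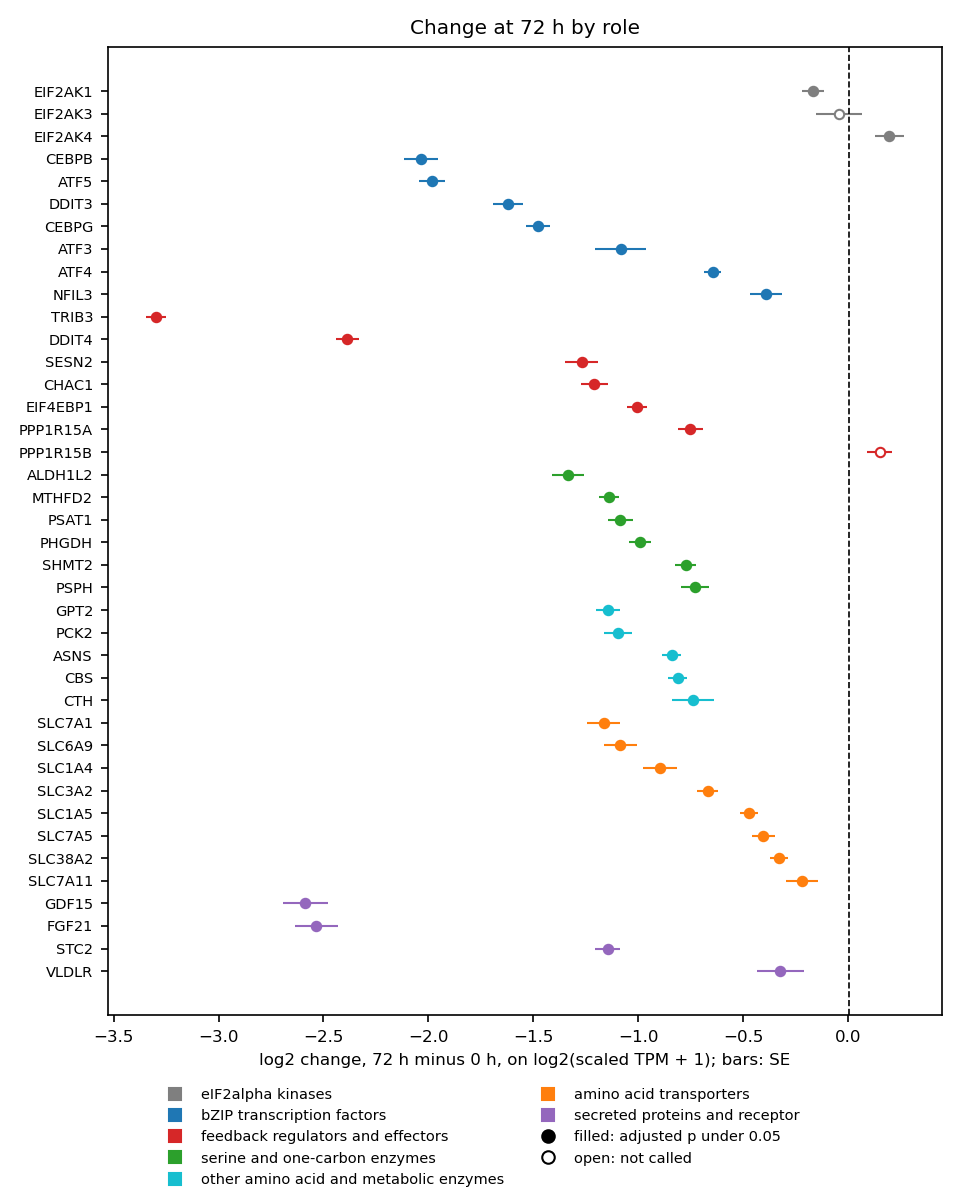
The plot gives for each tested gene (rows, coloured by role) the log2 change at 72 h against 0 h on log2(scaled TPM + 1), with bars for the SE, filled where the adjusted p is under 0.05 and open where not; the dashed line is the median of all genes tested. Values run from -3.30 for TRIB3 to 0.20 for EIF2AK4.

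Members with and without a match of the searched core in their window were counted apart. A window without a match does not show that a member lacks the element. Of the 10 members with a match in their window, 9 were lower at 72 h, with a median log2 change of -0.99. Of the 23 tested members with a window and no match, 21 were lower, with a median of -1.08. Both counts stand against 26.2% lower at 72 h among all genes tested. The exception among the members with a match was PPP1R15B. The difference between these sets of members was not tested.

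The fall was concentrated in the last of the 24 h steps. Between 24 h and 48 h, 12 members were lower at 48 h and 1, PPP1R15B, was higher, where 6.47% of all genes were lower and 7.56% higher, and the median log2 change of the members was -0.13. The 12 were ATF5, DDIT3, CEBPB, CEBPG, TRIB3, DDIT4, PPP1R15A, ALDH1L2, GPT2, CBS, SLC7A1 and GDF15. They numbered 6 without the first 24 h or the second 48 h library, 7 without the second 24 h or the first 48 h library, and 0 on the TPM as deposited, where 0.715% of all genes were lower and 4.3% higher. Between 48 h and 72 h, 34 members were lower at 72 h and 0 higher by limma (1 higher, EIF2AK4, at an unadjusted p under 0.05), where 19.4% of all genes were lower and 20.5% higher (22% and 4.96% on the TPM as deposited), and the median was -0.68. The 6 not called were EIF2AK3, EIF2AK4, NFIL3, PPP1R15B, SLC7A11 and VLDLR. TRIB3 fell by 2.66 on the log2 scale in this step alone (-2.66 ± 0.05, adjusted p = 6.12e-09), which is 6.30-fold, and ATF5 by 1.40 (adjusted p = 1.79e-06).

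The change over the 72 h step was then tested against the change over the 48 h step, as a single contrast. It was more negative in 24 members and less negative in 0 by limma (also 0 at an unadjusted p under 0.05), where 6.48% of all genes had a more negative and 5.97% a more positive last step (3.14% and 0.462% on the TPM as deposited). The median difference was -0.56 over the members and 0.00 over all genes. The largest was that of TRIB3, -2.13 ± 0.09 (adjusted p = 8.02e-06), followed by FGF21 with -1.70 (adjusted p = 0.00167) and DDIT4 with -1.55 (adjusted p = 9.52e-05). ATF4 itself had -0.48 ± 0.07 (adjusted p = 0.00406), a call that did not hold with the second 48 h library left out (adjusted p = 0.0738) or on the TPM as deposited (adjusted p = 0.104). CBS, called at every time, had a difference of 0.01 (adjusted p = 0.937). The 24 members were 11 without the second 48 h library and 16 without the first, and both numbers are from the same contrast with a single library at 48 h, which is then taken to vary like the other groups.

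**Figure D4:**
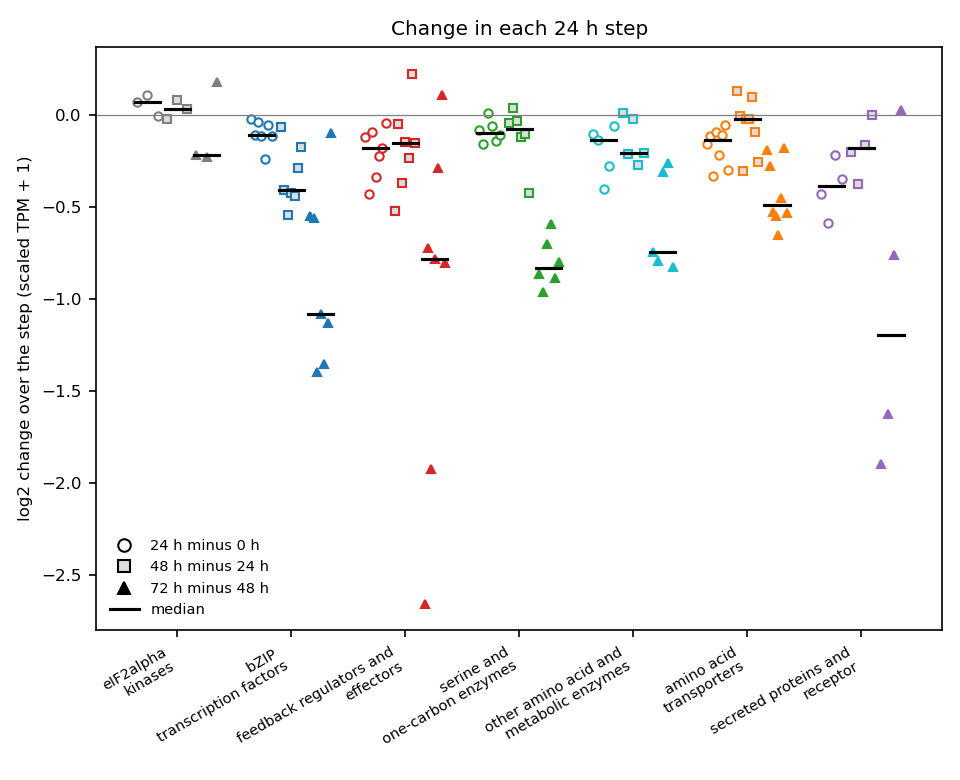
The plot shows each tested gene's change on log2(scaled TPM + 1) over 3 steps, by role, in the colour of the role. Open circles are 24 h minus 0 h, squares filled in grey 48 h minus 24 h and filled triangles 72 h minus 48 h. A line marks the median of each role and step. The medians of the 7 bZIP factors reach -1.08 in the last step, and those of the 3 kinases stay between -0.22 and 0.07.

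Counted by the first time at which each was called lower than 0 h, 3 members were first called at 24 h, 23 at 48 h and 11 at 72 h. Of all genes tested, 0.437%, 11.2% and 18.2% had their first lower call at these times. Those first called at 72 h were ATF4, EIF2AK1, 3 of the 6 serine and one-carbon enzymes (PHGDH, PSAT1 and PSPH), ASNS, and 5 of the 8 transporters (SLC7A11, SLC7A5, SLC3A2, SLC1A4 and SLC1A5). A later first call does not by itself show a later change, and 7 of these 11 were called earlier under another setting. With the listed genes of every library brought to 1 common sum, ATF4, ASNS, PHGDH, SLC7A5, SLC3A2 and SLC1A4 were called lower at 48 h (adjusted p between 0.0125 and 0.0429), which made 32 members, where 17.9% of all genes were lower and 8.95% higher. Quantile normalization called ATF4 and SLC3A2 at 48 h (adjusted p = 0.0408 and 0.0495) and SLC1A5 already at 24 h (adjusted p = 0.0214). SLC1A4 was called at 48 h with the replicate block (adjusted p = 0.0286) and with the first 48 h library, or a 72 h library, left out (adjusted p between 0.0386 and 0.049). SLC3A2 was called at 48 h without either 72 h library (adjusted p = 0.0494 and 0.0496), and SLC7A5 and SLC3A2 in a fit of the compared groups alone (adjusted p = 0.0234 and 0.0392). EIF2AK3, EIF2AK4, PPP1R15B and the untested NUPR1 were not called lower at any time.

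Other genes of the pathway were read as lists for context. XPOT, the exporter of transfer RNA, was listed at 79.7 and 56.8 TPM at 72 h and 168 and 172 TPM at 0 h (log2 change -1.11 ± 0.06, adjusted p = 6.38e-07). No cytosolic transfer RNA synthetase was found under the symbols searched, so these were not analysed here. Of 14 genes for eIF2, its exchange factor eIF2B and partners, EIF2AK2 among them, 10 were lower, 1 higher and 3 not called at 72 h, with a median log2 change of -0.34. These and the next counts stand against 26.2% lower and 25.8% higher among all genes tested at 72 h. PPP1CB, a catalytic subunit of the phosphatase that acts on eIF2alpha, changed by -0.71 ± 0.05 (adjusted p = 2.81e-06) and EIF2S2, the beta subunit of eIF2, by -0.72 ± 0.05 (adjusted p = 3.32e-06). The 1 higher gene was EIF2B5, a subunit of eIF2B, with 0.28 ± 0.06 (adjusted p = 0.00266) and 0.07 (adjusted p = 0.763) on the TPM as deposited.

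Of 8 genes of the mitochondrial relay and of proline and one-carbon metabolism, 5 were lower and 0 higher at 72 h by limma (also 0 higher at an unadjusted p under 0.05), with a median of -0.36. LONP1, a mitochondrial protease, was listed at 45.8 and 33.8 TPM at 72 h and 122 and 115 TPM at 0 h (log2 change -1.35 ± 0.05, adjusted p = 1.31e-07). PYCR1, which makes proline, changed by -0.80 ± 0.04 (adjusted p = 7.07e-07). Of 19 tested genes from other reports of ATF4 targets, 12 were lower, 4 higher and 3 not called (median -0.41). Among all genes tested, 26.2% were lower and 25.8% higher at 72 h. SLC43A1, a leucine carrier, changed by -1.48 ± 0.06 (adjusted p = 2.13e-07) and CLGN, a chaperone of the endoplasmic reticulum, by -1.63 ± 0.10 (adjusted p = 1.53e-06). The 4 higher, named after their values were seen, were GADD45A (0.54), RIT1 (0.40), TXNIP (0.39) and ERO1A (0.35). On the TPM as deposited their adjusted p-values were 0.105, 0.315, 0.388 and 0.517 in that order, and ERO1A was not called either with the second 0 h library left out (adjusted p = 0.055).

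The neighbouring branches of the unfolded protein response were counted in the same way. Of 18 endoplasmic reticulum chaperone and XBP1 or ATF6 genes, 5 were lower, 7 higher and 6 not called at 72 h, with a median log2 change of 0.01, where 26.2% of all genes tested were lower and 25.8% higher. At 48 h 1 was lower and 6 were higher, where 11.5% of all genes were lower and 12% higher. On the TPM as deposited 4 were lower and 0 higher at 72 h, and 0 were called either way at 48 h. On that scale 31.2% of all genes were lower and 10.5% higher at 72 h, and 3.14% and 4.61% at 48 h. XBP1, the factor of the IRE1 branch, was listed at 58.5 and 45.6 TPM at 72 h and 106 and 102 TPM at 0 h (log2 change -0.78 ± 0.05, adjusted p = 3.3e-06). CALR, the calcium-binding chaperone calreticulin, was listed at 445 and 331 TPM at 72 h and 299 and 289 TPM at 0 h (log2 change 0.61 ± 0.04, adjusted p = 4.95e-06, and 0.39 with adjusted p = 0.053 on the TPM as deposited). The difference between these genes and the 41 was not tested.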

How the data were processed

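The authors deposited 1 table of TPM per gene symbol for 8 libraries of RNA sequencing, which RSEM produced per the submitters' processing notes. These also name FastQC, Trimmomatic, STAR, Picard, SAMtools and hg19. No source used here gives tool versions, annotation or strand setting. Depth is unknown, since TPM does not keep it, and no counting error was attached. Genes reaching 1 TPM in 2 or more libraries were kept, each library was scaled by the median over genes of its ratio to the average library (geometric mean), and log2(scaled TPM + 1), which understates the change of low genes, was fitted with limma 3.58.1 in R 4.3.3 to all 8 libraries (4 residual degrees of freedom, mean-variance trend). Adjusted p-values are two-sided, by Benjamini-Hochberg over all kept genes. Scaling was preferred because the fit to the TPM as deposited gave infinite prior degrees of freedom (5.41 scaled) and a shifted median at 72 h. The limma fit was also run on simulated data with known changes. No clear pairing by replicate number was seen (correlations of deviations between times -0.0855 to 0.106), which cannot settle whether equal numbers share a culture. Members, lists and the scaling were chosen with earlier results of these data known. Values in every library are given for ATF4, the kinases, up to 4 members of each role with the smallest p at 72 h and every member called higher, and for other lists up to 2 genes. Overlapping genes and copies were named from GENCODE: 15 members overlap another gene's exons, 14 of them on the opposite strand, and 8 have a named copy. No coordinates of members were taken in hg19. Per the labels there were 3 treated replicates, of which 2 per group were analysed here.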

Additional observations from a re-analysis of the deposited data

Results flagged for a closer look

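In 24 of the 41 genes the log2 change over the last step, 72 h minus 48 h, differed from that over the step before it, 48 h minus 24 h, by limma's test of the difference itself (adjusted p between 8.02e-06 and 0.0223). On the TPM as deposited the differences of ATF4, SHMT2, SLC1A5 and SLC3A2 were not called (adjusted p between 0.0789 and 0.104). All 24 differences were negative. Among effectors and secreted factors they were -2.13 for TRIB3, -1.70 for FGF21, -1.55 for DDIT4, -1.25 for GDF15, -0.673 for CHAC1, -0.65 for EIF4EBP1, -0.64 for SESN2 and -0.602 for STC2. The bZIP factors CEBPB, ATF5, CEBPG, DDIT3 and ATF4 had -0.914, -0.85, -0.846, -0.658 and -0.484. Among enzymes the difference was -0.999 for PSAT1, -0.816 for PHGDH, -0.781 for MTHFD2, -0.756 for ASNS, -0.669 for PSPH, -0.616 for PCK2, -0.582 for GPT2 and -0.474 for SHMT2. The transporters SLC1A4, SLC1A5 and SLC3A2 had -0.629, -0.547 and -0.528. Without the second 48 h library 13 of these were no longer called, namely ATF4, CEBPB, CHAC1, DDIT3, GDF15, GPT2, PCK2, PSPH, SESN2, SHMT2, SLC1A4, SLC3A2 and STC2 (adjusted p between 0.0532 and 0.174).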

How the results depend on the processing

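Members lower at 72 h against 0 h numbered 34 to 37, and against 48 h 32 to 35, over all alternatives run. At 24 h the members lower were 1 on the TPM as deposited and 0 with no filter, no trend or an adjusted p under 0.01, and at 48 h 15 on the TPM as deposited. Members higher at 72 h were 0 on the TPM as deposited, with the same sum, no filter, the compared groups alone or an adjusted p under 0.01, and 2 with quantile normalization or a minimum TPM of 5. At 48 h against 24 h the members lower were 0 as deposited and 7 at 0.01, and those higher were 0 as deposited, with the same sum, no filter, no trend, the compared groups alone or 0.01. At 72 h against 48 h the members higher were 1 with the same sum or a minimum TPM of 5. Over all genes, 55 were called at 24 h as deposited, 15 with no filter, 212 with a minimum TPM of 5, 20 with no trend and 11 at 0.01 (129 as reported), and at 48 h 922 as deposited and 1265 at 0.01. At 48 h against 24 h 597 were called as deposited and 595 at 0.01, at 72 h against 48 h 2815 at 0.01, and for the difference between steps 429 as deposited, 876 with no filter, 893 with no trend and 341 at 0.01. The log2 change of EIF2AK4 at 72 h turned to -0.008505 as deposited. The cause of these shifts was not tested. Leaving out 1 library at a time, members lower ranged from 0 to 4 at 24 h, 6 to 14 at 48 h against 24 h and 11 to 25 for the difference between steps, and members higher from 0 to 1 at 72 h and at 48 h against 24 h. All genes called then ranged from 4 (without the first 24 h library) to 296 (without the second 72 h library) at 24 h, 1358 to 3147 at 48 h (at most 1549 without a 0 or 48 h library), 622 to 1955 at 48 h against 24 h (at most 841 without a 24 or 48 h library) and 154 to 1920 for the difference between steps (154 and 315 without the second and first 48 h library, 672 without the first 24 h library). With the replicate number as a block (the replicate block), 2 members were lower at 24 h, with GDF15 at an adjusted p of 0.0577, and 11 at 48 h against 24 h. With 2 libraries a group and unknown depth, the precision of small changes is limited.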
